A study of Mus musculus with 6 samples.

Results

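Antisense long noncoding RNAs are long transcripts without a recognised protein that are read from the DNA strand opposite a known gene. In lungs of mice given fine particulate matter (PM2.5) through the trachea and in lungs of mice given saline, 8357 transcripts of NONCODE, a database of noncoding RNA, met this description out of the 149728 transcripts in the deposited table. A member had a NONCODE identifier, was described in the table as lncRNA, lay on an autosome, shared at least 1 base with the span of an Ensembl transcript on the opposite strand, and shared none with an Ensembl span on its own strand. Each was set beside the gene it overlapped, and where it overlapped several, the gene with the longest shared stretch was taken.

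The study compared 3 lung libraries of PM2.5 mice with 3 of saline mice, both numbered 2, 3 and 4 in the labels. All mice were of the inbred strain BALB/c, with a labelled age of 9 weeks. PM2.5 mice received 5 mg per kg of body weight in 50 µl of saline and saline mice the same volume without particles, once weekly for 8 weeks. The labels do not say that libraries came from separate mice, so p-values measure the spread between these libraries, whatever its source. The deposited values, whose unit the file does not name, are read as FPKM from their sums and spacing, a unit that scales fragments to the length of the transcript and the size of the library, so levels of different transcripts can be set side by side. The library kit named in the labels does not mark the strand. Fragments from the bases that a member and its gene share therefore cannot be assigned to one strand from the read alone, and a member's level and its gene's level cannot be told apart there.

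Antisense RNA is a common feature of mammalian loci, and how it lies against the gene matters for what it can do. Head-to-head RNAs start inside the gene and run out past its start, often from a promoter that fires in both directions. Tail-to-tail RNAs share only the gene's last part with it. Other antisense RNAs lie wholly inside the gene, mostly across introns, or span it. Known examples act on the gene opposite by recruiting chromatin modifiers, by interfering with transcription or by pairing with its RNA, while many others are rapidly degraded by the nuclear exosome.

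Orientation was judged against the span of the gene's Ensembl transcripts that the member overlaps, so against the whole gene it can differ. Of the members, 4915 (58.8%) lay inside the gene, 1935 (23.2%) were head to head, 1145 (13.7%) tail to tail and 362 (4.33%) spanned the gene. They came from 6533 NONCODE genes and lay opposite 4965 Ensembl genes, with up to 17 members on a single gene, so members were not independent of each other. The median span was 3247 bases, and 590 members overlapped more than 1 gene. By RefSeq symbols, 7529 members (90.1%) lay opposite protein-coding genes.

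Where RefSeq gave promoter windows for the gene opposite, most head-to-head and spanning members covered at least 1 whole. RefSeq (assembly GRCm38.p6) gave a window from 250 bases before to 50 bases after the start for genes of 1419 head-to-head members, and 1129 of these covered at least 1 whole window. For spanning members this was 138 of 158, for members inside the gene 136 of 3675, and for tail-to-tail members 6 of 849. The 4 windows shown are those in which the start of a described head-to-head member falls, so the edge between capitals and lower case marks where the antisense RNA begins. Each is printed 5′ to 3′ on the strand of the gene, and capitals mark the bases inside the span of the member. The windows are chr9:118926286-118926585 (+) for Ctdspl, chr1:36557508-36557807 (-) for Sema4c, chr16:93603766-93604065 (-) for Setd4 and chr19:46305445-46305744 (+) for Nfkb2.
Ctdspl promoter with NONMMUT135567.1: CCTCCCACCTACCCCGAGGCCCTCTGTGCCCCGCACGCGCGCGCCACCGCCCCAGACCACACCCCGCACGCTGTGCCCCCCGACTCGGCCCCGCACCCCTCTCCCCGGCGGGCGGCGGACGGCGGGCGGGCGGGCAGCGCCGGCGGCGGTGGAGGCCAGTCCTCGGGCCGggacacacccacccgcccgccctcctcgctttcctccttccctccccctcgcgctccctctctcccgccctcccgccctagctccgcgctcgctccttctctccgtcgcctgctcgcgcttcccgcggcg
Sema4c promoter with NONMMUT000575.2: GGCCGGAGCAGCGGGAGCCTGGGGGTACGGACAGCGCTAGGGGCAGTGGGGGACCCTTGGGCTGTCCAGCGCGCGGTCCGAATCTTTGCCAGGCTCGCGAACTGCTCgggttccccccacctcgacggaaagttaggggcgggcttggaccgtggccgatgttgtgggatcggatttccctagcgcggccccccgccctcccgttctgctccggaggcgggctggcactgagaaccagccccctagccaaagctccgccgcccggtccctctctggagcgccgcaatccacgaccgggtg
Setd4 promoter with NONMMUT027778.2: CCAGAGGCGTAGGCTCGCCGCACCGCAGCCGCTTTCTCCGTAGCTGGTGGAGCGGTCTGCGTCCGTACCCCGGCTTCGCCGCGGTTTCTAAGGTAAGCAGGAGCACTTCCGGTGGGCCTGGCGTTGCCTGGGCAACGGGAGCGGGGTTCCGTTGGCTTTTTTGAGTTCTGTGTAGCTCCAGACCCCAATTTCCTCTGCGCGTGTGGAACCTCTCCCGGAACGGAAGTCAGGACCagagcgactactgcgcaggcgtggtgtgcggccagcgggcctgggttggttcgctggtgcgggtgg
Nfkb2 promoter with NONMMUT034938.2: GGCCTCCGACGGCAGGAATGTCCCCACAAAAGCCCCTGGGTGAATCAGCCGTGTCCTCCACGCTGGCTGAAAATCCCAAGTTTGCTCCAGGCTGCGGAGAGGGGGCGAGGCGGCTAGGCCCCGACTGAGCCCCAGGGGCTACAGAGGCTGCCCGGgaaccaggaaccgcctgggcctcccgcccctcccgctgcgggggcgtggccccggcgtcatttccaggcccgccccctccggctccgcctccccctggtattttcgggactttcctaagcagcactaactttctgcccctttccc

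The members covered 170 of the 300 bases in the Ctdspl window, 107 in the Sema4c window, 234 in the Setd4 window and 155 in the Nfkb2 window. They covered none of the bases after the RefSeq start of these windows. They meet the definition of overlap through Ensembl transcripts that start farther upstream. For Sema4c and Nfkb2, RefSeq also gave a window farther upstream, and the member covered all 300 bases of it. CG pairs numbered 43, 30, 29 and 20 in these windows, in the same order, and the median over all RefSeq windows was 7. The letters GGGCGG, searched on both strands with overlapping matches counted, were present 8 times in the Ctdspl window, 3 times in the Sema4c window, 0 times in the Setd4 window and 2 times in the Nfkb2 window. Of all 32817 windows, 35.6% held these letters. The letters CCAAT were present once in the Setd4 window and in 37.4% of all windows. These matches describe the sequence alone.

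Some members hold microRNA hairpins and so could be read as their primary transcripts. RefSeq hairpins lay whole inside 64 members, and 4 members that passed the filter on low values held 6 hairpins on their own strand. The mature arms of 5 of them are shown with the seed, bases 2 to 8, in capitals, because the seed sets which messenger RNAs a microRNA pairs with.
miR-130a-3p in NONMMUT038285.2: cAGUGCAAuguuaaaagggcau
miR-195a-5p in NONMMUT083892.1: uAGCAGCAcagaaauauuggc
miR-497a-5p in NONMMUT083892.1: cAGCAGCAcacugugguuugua
miR-141-3p in NONMMUT124415.1: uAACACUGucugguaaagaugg
miR-200c-3p in NONMMUT124415.1: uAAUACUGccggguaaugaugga

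The miR-195a and miR-497a arms share the seed AGCAGCA, and the miR-141 and miR-200c arms have different seeds. NONMMUT038285.2 lies tail to tail with Ypel4 and measured 2.78, 2.05 and 2.86 FPKM in PM2.5 lungs, against 2.38, 2.18 and 3.17 FPKM in saline lungs. Its groups overlapped, and the log2 fold change was -0.01 ± 0.19 (SE). NONMMUT083892.1, opposite 0610010K14Rik, measured 0.846, 1.02 and 1.20 FPKM in PM2.5 lungs, against 1.35, 1.16 and 1.32 FPKM in saline lungs. Its groups overlapped at the PM2.5 value of 1.20 FPKM, and limma gave an adjusted p of 0.664. NONMMUT124415.1 lies opposite Phb2, the gene of a mitochondrial inner membrane scaffold, and the microRNAs it holds are typical of epithelium. It measured 1.44, 0.723 and 1.03 FPKM in PM2.5 lungs, against 1.09, 1.29 and 1.30 FPKM in saline lungs, and these groups overlapped. NONMMUT096544.1, which holds the hairpin of Mir1941 and lies opposite the keratin gene Krt80, averaged 0.704 ± 0.196 FPKM in PM2.5 lungs and 0.986 ± 0.335 FPKM in saline lungs (SD, n = 3 each).

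Most members were at or near the limit of detection. The median of their mean levels was 0.0414 FPKM, 2386 members were above 0 in every library and 2304 in a single library. The fragments behind a value are not stated. Steps between low values put the depth at roughly 18.9 to 22.5 M fragments, at which 3 fragments on 1 kb are worth 0.133 to 0.159 FPKM, counting error only. A filter that kept transcripts averaging 0.5 FPKM or more across the 6 libraries was passed by 801 members, and 7556 stayed below it and were not tested. Only 339 members averaged 1 FPKM or more and 21 averaged 5 or more.

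Members listed at 0 made up 42.5%, 45.5% and 49.2% of all members in the PM2.5 libraries, against 38.4%, 41.0% and 40.1% in the saline libraries. The summed level of all members was 1680, 1494 and 1477 FPKM in PM2.5 lungs, against 1760, 1733 and 1787 FPKM in saline lungs. Each PM2.5 library had more members at 0 and a lower sum than every saline library. As a share of the whole table's FPKM the members made up 0.467%, 0.400% and 0.418% in PM2.5 lungs, against 0.454%, 0.475% and 0.518% in saline lungs, and these shares overlapped. Transcripts of the whole table listed at 0 made up 20.5% to 24.8% in PM2.5 libraries and 19.8% to 21.0% in saline libraries. Whether depth had a part in the members' zeros was not tested.

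The libraries had the markers of lung: 7 of 8 epithelial and 6 of 6 endothelial markers were in the table, all above 0. Summed epithelial markers overlapped between groups. Endothelial markers summed to 707 to 783 FPKM in PM2.5 lungs and 857 to 919 FPKM in saline lungs. Plasma cell markers summed to 529 to 1009 FPKM in PM2.5 lungs and 164 to 252 FPKM in saline lungs, and mesothelial markers to 13.9 to 20.8 FPKM in PM2.5 lungs and 8.02 to 11.3 FPKM in saline lungs. Cardiac muscle markers varied by library, with 293, 38.9 and 56.8 FPKM in PM2.5 lungs and 200, 421 and 199 FPKM in saline lungs. The part of these in the members' values was not tested, and in whole lung fewer cells of a type and less RNA per cell cannot be told apart.

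None of the 8 members with the highest mean levels passed the test between PM2.5 and saline lungs, and several exceeded the gene opposite. NONMMUT011559.2, at chr11:94037218-94037628 inside Spag9, the gene of a scaffold for stress-activated kinases, measured 16.2, 15.5 and 13.6 FPKM in PM2.5 lungs, against 20.8, 18.2 and 18.98 FPKM in saline lungs. These groups did not overlap, but the log2 fold change of -0.35 ± 0.12 (SE) had an adjusted p of 0.492 in limma. Spag9 itself was at 29.9 to 32.6 FPKM in all libraries.

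NONMMUT016731.2, tail to tail with Gpld1, the gene of an enzyme that releases GPI-anchored proteins, measured 14.4, 13.0 and 13.4 FPKM in PM2.5 lungs, against 13.0, 12.7 and 12.4 FPKM in saline lungs. It was far above Gpld1, which stayed between 1.56 and 2.10 FPKM. NONMMUT068929.2 inside Bace1, the gene of beta-secretase, was at 10.2 to 12.2 FPKM in the 6 libraries, with Bace1 at 3.54 to 5.46 FPKM. NONMMUT058238.2 inside Shq1, an assembly factor of small nucleolar ribonucleoproteins, was at 7.41 to 10.3 FPKM, with Shq1 at 2.01 to 2.78 FPKM. These 3 members had adjusted p-values of 0.753 to 0.918 in limma.

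NONMMUT041011.2, tail to tail with Ttpal, measured 9.89, 7.97 and 6.06 FPKM in PM2.5 lungs, against 11.2, 13.5 and 14.96 FPKM in saline lungs. The groups did not overlap, and the log2 fold change was -0.71 ± 0.21 (SE; adjusted p = 0.461, limma). Ttpal stayed between 3.08 and 6.12 FPKM with overlapping groups. That level leaves out NONMMUT041012.2, a NONCODE transcript on the strand of Ttpal inside the shared stretch, at 7.94 to 10.2 FPKM. NONMMUT026253.2, tail to tail with the cap-binding gene Ncbp2, averaged 8.54 ± 0.734 FPKM in PM2.5 lungs and 7.71 ± 0.415 FPKM in saline lungs (SD, n = 3 each), and the groups overlapped.

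2 of the 8 highest members need a caution. NONMMUT069082.2 inside Ppp2r1b, a scaffold subunit of protein phosphatase 2A, measured 11.4, 9.39 and 11.1 FPKM in PM2.5 lungs, against 0.204, 11.5 and 11.0 FPKM in saline lungs. Saline replicate 2 alone was low, and without it the log2 fold change of 1.27 became -0.08. NONMMUT000380.2 lies inside Gm29216, in a nuclear copy of mitochondrial DNA, so its fragments may be shared with the mitochondrial genome and its 5.50 to 11.7 FPKM are uncertain.

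Levels of members and of the genes opposite were compared in the 687 pairs in which both averaged 0.5 FPKM or more. The member was lower in most pairs, with a median log2 ratio of member to gene between -2.38 and -2.20 over the 6 libraries. The member exceeded the gene in 8.01%, 8.88% and 8.88% of pairs in PM2.5 libraries and in 6.40%, 8.44% and 8.59% in saline libraries. Head-to-head members stood lowest against their genes, with a median log2 ratio of -2.58 and 3 of 161 above the gene. Members inside the gene had a median of -2.30 with 29 of 384 above it, and tail-to-tail members a median of -1.99 with 9 of 125 above it. Across pairs, which share libraries and partly share genes, the log2 levels of member and gene had a Pearson r of 0.08 to 0.14.

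**Figure D1:**
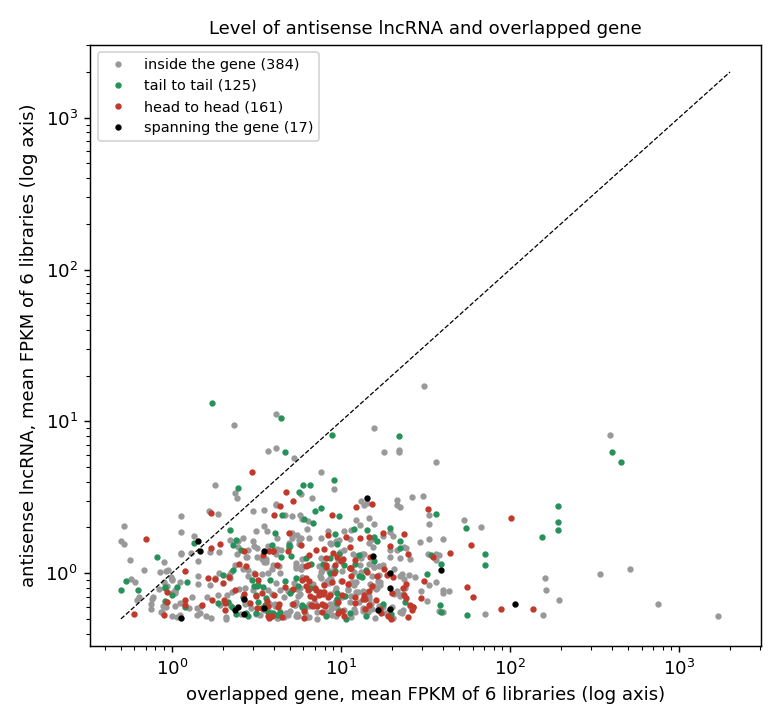
Mean FPKM over the 6 libraries of each antisense lncRNA (vertical, log axis) against the gene on the other strand (horizontal, log axis), 1 point per pair of the 687 tested pairs, coloured by orientation; the dashed line marks equal levels. Most points lie below the line, and 3 of the 161 head-to-head pairs lie above it.

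No member passed the threshold between PM2.5 and saline lungs. With limma on log2(FPKM + 0.5), fitted over the 60525 transcripts that passed the filter and adjusted over them by Benjamini-Hochberg, 0 of 801 members had an adjusted p under 0.05, and the smallest was 0.0574. Over all transcripts, 92 (0.152%) passed, 0.0777% higher and 0.0743% lower in PM2.5 lungs. In data simulated with the spread of these libraries, changes were planted on the log2(FPKM + 0.5) scale among all transcripts. Near the filter such changes are not the same fold in FPKM. This fit recovered 1 of 100 planted changes of 1 log2 unit and 14 of 100 of 2 log2 units. A member that did not pass may therefore still differ between groups. At an unadjusted p under 0.05, 11 members were higher (1.37%, against 4.56% of all transcripts) and 55 were lower (6.87%, against 4.89%). Leaving out PM2.5 replicate 3 turned the 55 into 35 and leaving out saline replicate 3 into 32. The 11 became 5 when PM2.5 replicate 2 was left out and 7 when PM2.5 replicate 3 was. Groups did not overlap in 47 members that were higher (5.87%, against 8.77%) and in 115 that were lower (14.4%, against 8.31%). The median log2 fold change of tested members was -0.08, with 486 (60.7%) below 0, and that of all transcripts tested was 0.00. The members' median was -0.12 without PM2.5 replicate 2, and with the filter at 2 FPKM, which 103 members passed, it turned to 0.0054. NONCODE lncRNAs without any Ensembl overlap had a median of -0.02 and those on the strand of a gene 0.06.

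The shift towards lower values was greatest in head-to-head members among the 4 orientations. Their median log2 fold change was -0.23 over 168 tested members, of which 128 (76.2%) were below 0. At an unadjusted p under 0.05, 22 of them (13.1%) were lower, against 4.89% of all transcripts, and 2 were higher, against 4.56%. Groups did not overlap in 44 lower and 5 higher members of the 168, against 8.31% and 8.77% of all transcripts. The 22 became 13 when PM2.5 replicate 3 was left out and 8 when saline replicate 3 was, while the median stayed between -0.28 and -0.18 with any single library left out. Members inside the gene had a median of -0.04 (446 tested, 24 lower and 6 higher at that p). Tail-to-tail members had -0.04 (152 tested, 9 lower and 2 higher) and spanning members -0.05 (35 tested, 0 lower and 1 higher). The lower shares were 5.38% inside the gene and 5.92% tail to tail, near the 4.89% of all transcripts.

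The head-to-head shift was present in each PM2.5 library. The median log2 difference of these members from the saline mean was -0.13, -0.25 and -0.21 in the PM2.5 libraries, against -0.01, 0.03 and 0.00 in the saline libraries, without overlap. The saline libraries set that mean, which draws their own values towards 0, so the lack of overlap is partly built in. The same medians over all transcripts were 0.02, -0.03 and 0.03 in the PM2.5 libraries, against 0.01, -0.02 and 0.02 in the saline libraries. The 161 genes opposite that were tested had a median log2 fold change of -0.06, and the ratio of member to gene a median of -0.17. These counts and medians describe the members, and no test was made over the list.

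**Figure D2:**
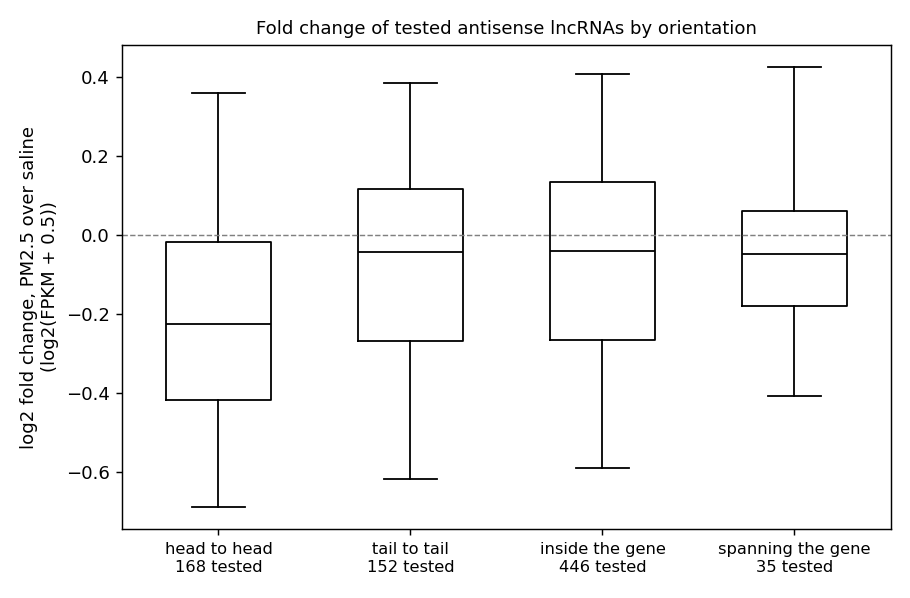
Log2 fold change (PM2.5 over saline, on log2(FPKM + 0.5)) of the tested antisense lncRNAs by orientation to the gene; the line in each box is the median, boxes span the middle 50% of members and whiskers run to the 5 and 95 percentiles. The head-to-head box has its median at -0.23 and lies below 0, while the other medians are at -0.04 to -0.05.

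**Figure D3:**
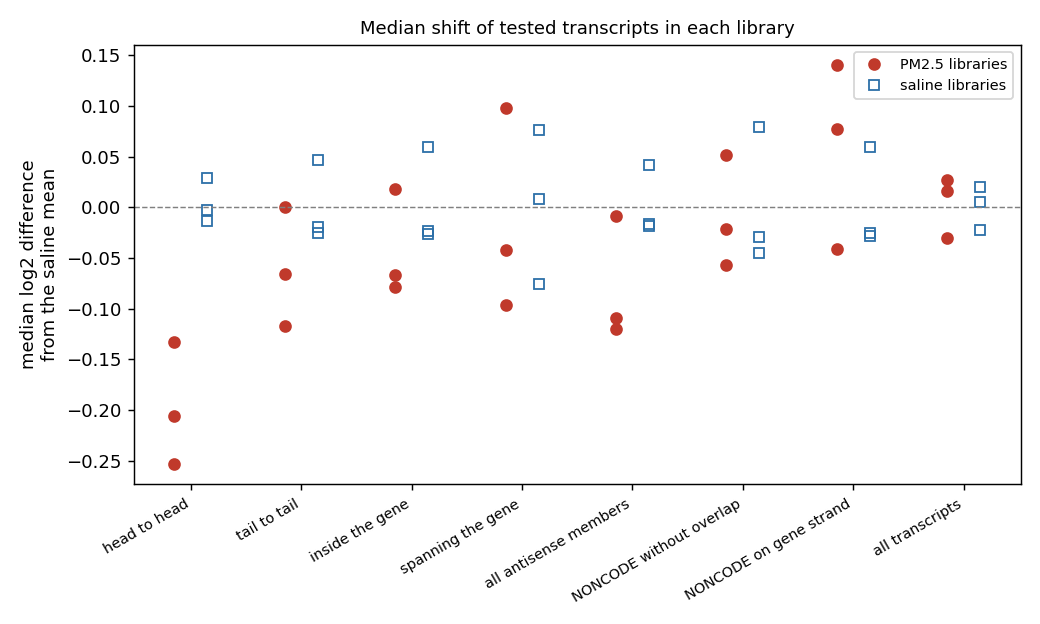
Median log2 difference from the saline mean in each library for tested transcripts of each set, with PM2.5 libraries as filled circles and saline libraries as open squares. The 3 PM2.5 values of head-to-head members, -0.13 to -0.25, lie below all saline values of that set. Saline values are drawn towards 0 because these libraries set the mean.

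The head-to-head members with lower values lay opposite genes of several functions. NONMMUT135567.1 at chr9:118924452-118926455, opposite Ctdspl, the gene of a small phosphatase acting on RNA polymerase II and RB1, measured 2.16, 2.31 and 1.84 FPKM in PM2.5 lungs, against 3.31, 2.94 and 3.29 FPKM in saline lungs. All 3 PM2.5 values were lower, and the log2 fold change was -0.50 ± 0.13 (SE; unadjusted p = 0.00871, adjusted p = 0.418, limma across all transcripts). Ctdspl overlapped between groups, at 29.5, 36.6 and 30.03 FPKM in PM2.5 lungs and 23.6, 36.7 and 40.0 FPKM in saline lungs.

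NONMMUT000575.2 at chr1:36557701-36559667, opposite the semaphorin gene Sema4c, measured 0.890, 1.31 and 0.938 FPKM in PM2.5 lungs, against 1.68, 1.98 and 1.85 FPKM in saline lungs. Its groups did not overlap (log2 fold change -0.61 ± 0.16, SE), whereas Sema4c varied widely in both groups, at 5.11, 3.17 and 10.9 FPKM in PM2.5 lungs and 14.6, 7.36 and 6.21 FPKM in saline lungs. NONMMUT027778.2 at chr16:93603832-93604968, opposite the methyltransferase gene Setd4, measured 0.580, 0.309 and 0.187 FPKM in PM2.5 lungs, against 1.01, 1.09 and 0.817 FPKM in saline lungs. Again no value overlapped, while Setd4 was at 1.45 to 2.23 FPKM in PM2.5 lungs and 1.39 to 2.19 FPKM in saline lungs.

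NONMMUT001109.2 at chr1:59762215-59763848, opposite Bmpr2, the type 2 receptor of bone morphogenetic proteins that is mutated in heritable pulmonary hypertension, measured 1.92, 2.00 and 1.15 FPKM in PM2.5 lungs, against 3.33, 3.02 and 2.45 FPKM in saline lungs. These groups did not overlap (log2 fold change -0.67 ± 0.21, SE; adjusted p = 0.482, limma), and Bmpr2 overlapped, at 73.3 to 114 FPKM in PM2.5 lungs and 106 to 122 FPKM in saline lungs. Summed with the overlapping member on its strand, it was at 2.62, 2.52 and 1.45 FPKM in PM2.5 lungs, against 4.205, 3.35 and 2.66 FPKM in saline lungs, still without overlap. The sum of endothelial markers was lower in PM2.5 lungs as well, and its part in this was not tested.

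Lower values were also found in members of other orientations. NONMMUT036403.2 inside Fam163b measured 0.541, 0.554 and 0.375 FPKM in PM2.5 lungs, against 1.40, 2.35 and 2.73 FPKM in saline lungs (log2 fold change -1.40 ± 0.24, SE), without overlap, and Fam163b was at most 0.0460 FPKM in any library. NONMMUT115953.1 inside Vps13d, the gene of a lipid transfer protein, measured 0.414, 0.391 and 0.244 FPKM in PM2.5 lungs, against 1.72, 1.02 and 1.31 FPKM in saline lungs, while Vps13d overlapped.

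NONMMUT005623.2 inside Mcm9, a helicase gene of DNA repair, had the narrowest spread, with 1.44, 1.49 and 1.49 FPKM in PM2.5 lungs, against 2.31, 2.20 and 2.37 FPKM in saline lungs. NONMMUT125899.1 inside Dnajb13, which encodes a chaperone of cilia, averaged 1.30 ± 0.326 FPKM in PM2.5 lungs and 3.64 ± 1.21 FPKM in saline lungs (SD, n = 3 each), and Dnajb13 overlapped at 1.68 to 2.49 FPKM in PM2.5 lungs and 1.11 to 2.28 FPKM in saline lungs. NONMMUT012832.2 inside Sphk1, which encodes a kinase making sphingosine-1-phosphate, measured 1.93, 1.80 and 1.39 FPKM in PM2.5 lungs, against 2.70, 3.88 and 2.88 FPKM in saline lungs. Members opposite Echdc1, Gse1 and Cntnap5b, chosen in the same way, had log2 fold changes of -0.62, -0.77 and -0.83.

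NONMMUT153092.1, tail to tail with the centrosome gene Cep57, measured 0.114, 0.125 and 0.755 FPKM in PM2.5 lungs, against 1.49, 1.33 and 1.54 FPKM in saline lungs. A second member on the same strand, NONMMUT153091.1, overlaps it and measured 8.03, 6.86 and 6.28 FPKM in PM2.5 lungs, against 5.56, 6.31 and 4.46 FPKM in saline lungs. Their sum was 8.14, 6.98 and 7.03 FPKM in PM2.5 lungs, and in saline lungs it reached 7.05 and 7.64 FPKM in replicates 2 and 3, so the locus as a whole overlapped between groups.

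Higher values were fewer. NONMMUT060624.2 at chr7:30955825-30958004 (+) lies head to head with Usf2, the gene of a transcription factor that binds E-boxes, and its far end reaches into Lsr, the gene of a lipoprotein receptor at tricellular junctions. It measured 1.29, 1.18 and 1.24 FPKM in PM2.5 lungs and was listed at 0 in all 3 saline libraries. This was the member with the smallest adjusted p (0.0574, limma). It passed the filter only through its PM2.5 values, so it had to differ, and that p carries no weight of its own. Usf2 overlapped between groups, with 13.5, 15.2 and 15.7 FPKM in PM2.5 lungs, against 15.3, 14.3 and 14.3 FPKM in saline lungs.

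Since an exact 0 may reflect an estimate that failed, the neighbouring member was examined. NONMMUT060625.2, which lies on the same strand between chr7:30956909 and chr7:30957854 and inside the span of NONMMUT060624.2, measured 0.0887, 0.0360 and 0.0561 FPKM in PM2.5 lungs, against 0.0740, 0.947 and 0.378 FPKM in saline lungs. The sum of both was 1.38, 1.21 and 1.29 FPKM in PM2.5 lungs, against 0.0740, 0.947 and 0.378 FPKM in saline lungs. The groups still did not overlap, and the log2 fold change of the sum was 0.995 with an adjusted p of 0.502 in limma.

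The same pattern was present at Tmem100, an endothelial gene downstream of BMP signalling. NONMMUT085640.1 at chr11:90035581-90043603, tail to tail with it, measured 0.543, 1.17 and 1.64 FPKM in PM2.5 lungs and was listed at 0 in all 3 saline libraries (adjusted p = 0.318, limma). This member too passed the filter only through its PM2.5 values, so that p carries no weight of its own. NONMMUT011480.2, which shares almost its whole span, measured 1.502, 0.496 and 0.317 FPKM in PM2.5 lungs, against 1.62, 1.67 and 1.25 FPKM in saline lungs. Their sum was 2.04, 1.66 and 1.96 FPKM in PM2.5 lungs, against 1.62, 1.67 and 1.25 FPKM in saline lungs, with overlap and a log2 fold change of 0.25. Tmem100 was at 35.1 to 44.7 FPKM in PM2.5 lungs and 36.9 to 40.7 FPKM in saline lungs. Of the tested members, 40 were listed at 0 in at least 1 library, and 34 of these were at 1 FPKM or more in another.

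NONMMUT153275.1 inside Rec114, a gene of meiotic recombination that was at most 0.180 FPKM here, measured 4.85, 4.51 and 4.27 FPKM in PM2.5 lungs, against 3.36, 2.99 and 2.71 FPKM in saline lungs. No value overlapped, and the log2 fold change was 0.52 ± 0.13 (SE; adjusted p = 0.397, limma). NONMMUT057665.2 inside Dysf, the membrane repair gene dysferlin, measured 1.12, 0.975 and 0.997 FPKM in PM2.5 lungs, against 0.665, 0.549 and 0.754 FPKM in saline lungs, with Dysf level at 10.9 to 11.5 FPKM in all libraries. NONMMUT015672.2 inside Wars, the tryptophanyl-tRNA synthetase gene, measured 6.05, 8.99 and 4.86 FPKM in PM2.5 lungs, against 4.13, 3.80 and 4.76 FPKM in saline lungs, and Wars was at 43.1, 40.2 and 42.7 FPKM in PM2.5 lungs, against 27.9, 32.8 and 30.8 FPKM in saline lungs. That member lies wholly inside its gene, so the 2 levels are not separable by strand.

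2 members lay opposite class I major histocompatibility genes, a family of near-identical copies that differs between BALB/c and the reference strain, and their values are uncertain. NONMMUT029508.2, spanning H2-T24, measured 3.56, 4.23 and 3.19 FPKM in PM2.5 lungs, against 2.97, 2.32 and 2.498 FPKM in saline lungs. NONMMUT102058.1, head to head with H2-Q4, measured 1.51, 2.12 and 1.83 FPKM in PM2.5 lungs, against 0.983, 0.00363 and 1.19 FPKM in saline lungs. NONMMUT029440.2 overlaps it on the same strand, had 0 FPKM in every PM2.5 library and measured 0.792, 1.45 and 0 FPKM in saline lungs. Their sum overlapped between groups, and its log2 fold change was 0.24 against 1.09 for NONMMUT102058.1 alone.

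Members opposite Shmt1, Zfp867, Lrrc55, Eml5 and Scube3, also chosen for groups that did not overlap, had log2 fold changes between 0.31 and 1.24. Their adjusted p-values were 0.441 to 0.549 in limma. The Shmt1 and Lrrc55 members averaged 0.292 and 0.178 FPKM in saline lungs. Both passed the filter only through their PM2.5 values, so their p-values carry no weight of their own. Summed with overlapping members of the same strand, the Lrrc55 locus was at 1.40, 1.47 and 2.05 FPKM in PM2.5 lungs, against 1.16, 1.41 and 1.82 FPKM in saline lungs, with overlap, and its log2 fold change was 0.13, compared with 1.04 for NONMMUT038310.2 alone. At Shmt1 the sum stayed without overlap, at a log2 fold change of 0.55, compared with 1.24 for NONMMUT140454.1 alone.

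**Figure D4:**
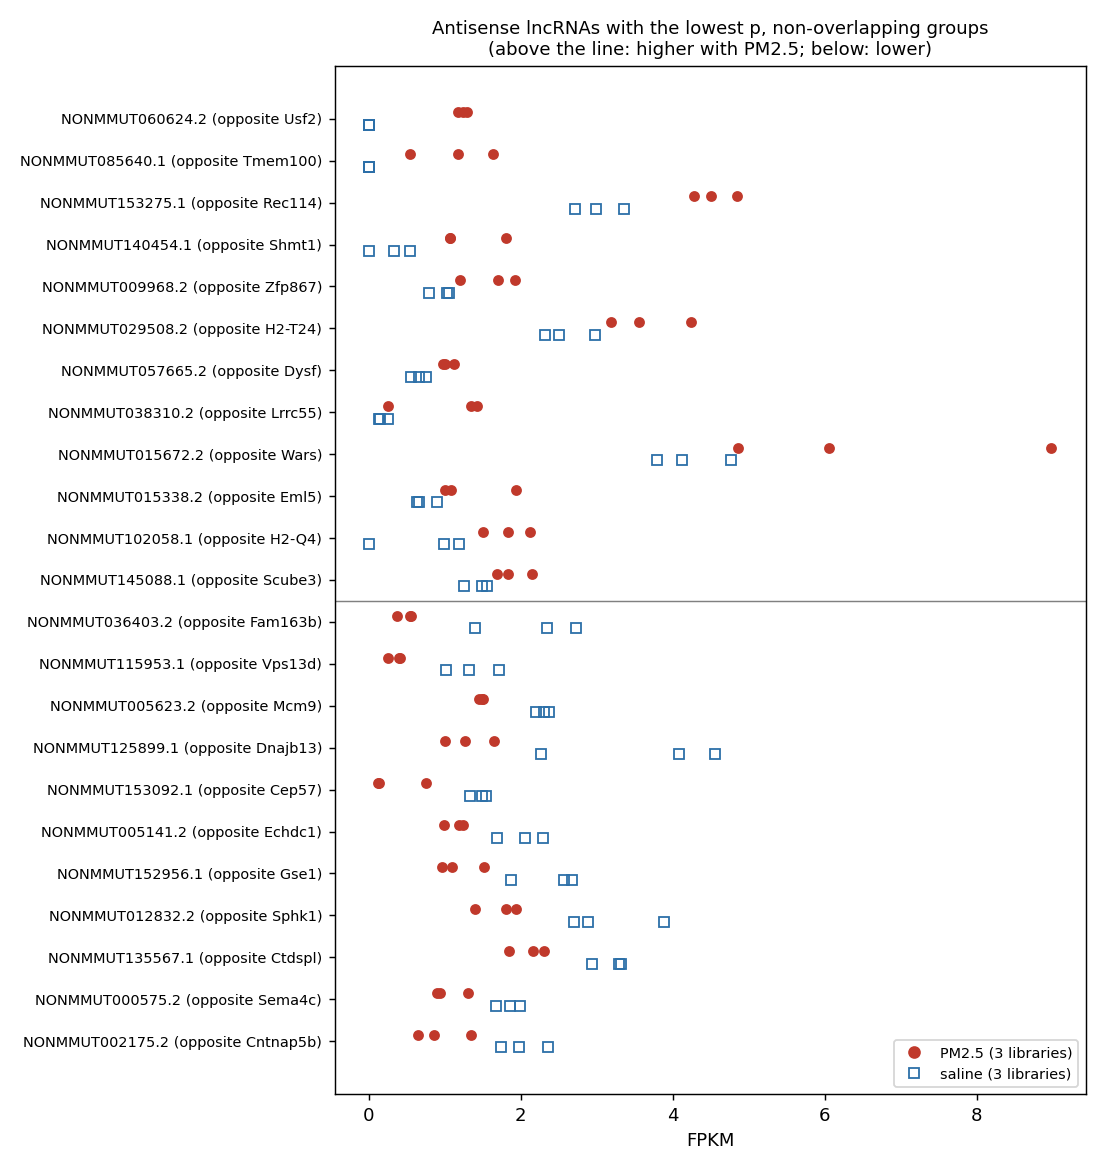
FPKM (horizontal) of 23 antisense lncRNAs with the lowest p in limma among those with non-overlapping groups, 12 higher with PM2.5 above the line and 11 lower below it, with filled circles for the 3 PM2.5 libraries and open squares for the 3 saline libraries. NONMMUT060624.2 and NONMMUT085640.1 are listed at 0 in all saline libraries.

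Whether a member moved differently from its gene was tested on the log2 ratio of the pair within each library, fitted with limma over all 10518 pairs of a NONCODE lncRNA and an overlapped gene on either strand. Among the 687 antisense pairs, 1 passed, with a higher ratio in PM2.5 lungs, against 13 of all pairs (0.124%), of which 3 were higher (0.0285%) and 10 lower (0.0951%). At an unadjusted p under 0.05, 38 antisense pairs had a higher and 51 a lower ratio in PM2.5 lungs, against 5.79% and 4.22% of all pairs. In all, 13.0% of antisense pairs were under that p.

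The pair that passed was NONMMUT060624.2 and Usf2 (adjusted p = 0.0171, limma). It rests on the member being listed at 0 in all saline libraries and on its passing the filter through PM2.5 values alone, so the size of the ratio is set by the pseudocount and the call is not support for a difference. The adjusted p was 0.284 with the replicate number as a block and became 0.0565 when the pseudocount was 1. Leaving out saline replicate 2 gave 0.0610 and leaving out saline replicate 4 gave 0.0583. When PM2.5 replicate 2 or 4 was left out, the member did not pass the filter.

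The Tmem100 member also passed the filter through PM2.5 values alone, so the p of its pair carries no weight either. After the pairs of Usf2 and Tmem100, the lowest p among higher ratios was that of Scarb2, the gene of a lysosomal membrane protein. Its member NONMMUT053114.2 at chr5:92506157-92506897 measured 0.534, 0.337 and 0 FPKM in PM2.5 lungs, against 0.976, 1.10 and 1.51 FPKM in saline lungs. Scarb2, summed over its transcripts, was at 1.83, 5.51 and 1.37 FPKM in PM2.5 lungs, against 33.9, 37.9 and 39.3 FPKM in saline lungs. The log2 ratio was higher by 2.505 ± 0.42 (SE; adjusted p = 0.166, limma). NONMMUT053114.2 averaged 0.290 FPKM in PM2.5 lungs and passed the filter only through its saline values, so p-values of this pair carry no weight. With the gene taken only as the Scarb2 transcript that the member overlaps, at 0.712 to 1.03 FPKM in PM2.5 lungs and 1.25 to 1.79 FPKM in saline lungs, the difference was -0.61. Leaving out PM2.5 replicate 3 gave the pair an adjusted p of 0.0436.

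The Gata6 pair depended on a single library. NONMMUT104095.1, head to head with this transcription factor gene of lung epithelium, measured 1.07, 1.44 and 2.10 FPKM in PM2.5 lungs, against 1.51, 1.13 and 1.33 FPKM in saline lungs, with overlap. Gata6 was listed at 0, 0.0745 and 11.3 FPKM in PM2.5 lungs, against a mean of 10.4 ± 0.565 FPKM in saline lungs (SD, n = 3). The ratio difference was 2.99 ± 1.06 (SE; adjusted p = 0.460, limma), and without PM2.5 replicate 4 it was 4.29 with an adjusted p of 0.0153.

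In other pairs the means of the gene and of the member differed in opposite directions. NONMMUT031495.2, head to head with Cables1, a gene of cell cycle control, measured 0.798, 0.730 and 0.664 FPKM in PM2.5 lungs, against 1.08, 1.80 and 1.63 FPKM in saline lungs, with Cables1 at 5.94, 8.28 and 6.45 FPKM in PM2.5 lungs and 5.10, 5.49 and 5.83 FPKM in saline lungs. Both values of this pair were without overlap, and its ratio differed by -0.98 ± 0.21 (SE). Summed with 3 overlapping members, NONMMUT031495.2 was at -0.36 on the log2 fold scale, compared with -0.69 alone, and the groups still did not overlap. NONMMUT039836.2, head to head with the kinase gene Stk35, was at 0.605 to 0.679 FPKM in PM2.5 lungs and 0.778 to 1.14 FPKM in saline lungs, with Stk35 at 5.86 to 6.63 FPKM in PM2.5 lungs and 3.60 to 4.73 FPKM in saline lungs.

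The pairs of Usp33, Dennd2a and Lyrm5 rested mainly on the gene. NONMMUT114426.1 inside the deubiquitinase gene Usp33 overlapped between groups, with Usp33 at 18.0, 15.6 and 13.4 FPKM in PM2.5 lungs, against 5.34, 5.64 and 13.5 FPKM in saline lungs. NONMMUT056530.2 inside Dennd2a, a gene of vesicle traffic, was at 0.588 to 0.742 FPKM in PM2.5 lungs and 0.273 to 0.473 FPKM in saline lungs, with Dennd2a at 1.95, 2.81 and 5.79 FPKM in PM2.5 lungs, against 8.83, 9.49 and 9.99 FPKM in saline lungs. NONMMUT059452.2 inside Lyrm5 overlapped, with Lyrm5 at 0.958 to 2.04 FPKM in PM2.5 lungs and 2.38 to 4.22 FPKM in saline lungs. NONMMUT104431.1, tail to tail with Arhgap26, was at 0.632 to 0.956 FPKM in PM2.5 lungs and 0.469 to 0.543 FPKM in saline lungs. Arhgap26 differed in the opposite direction, at 2.53 to 3.25 FPKM in PM2.5 lungs and 3.44 to 4.24 FPKM in saline lungs. The sum of NONMMUT104431.1 with the overlapping NONMMUT032124.2 overlapped between groups.

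**Figure D5:**
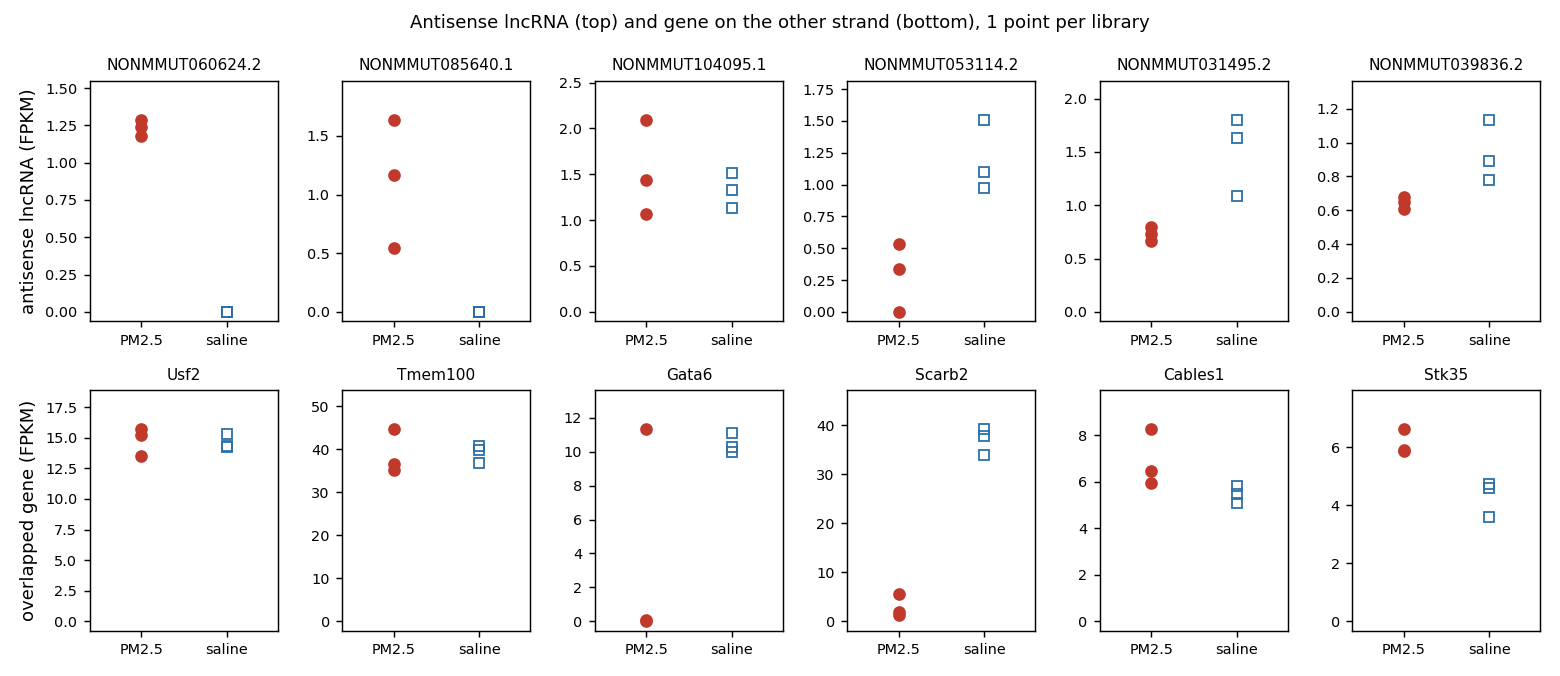
FPKM of 6 antisense lncRNAs (top) and the genes on the other strand (bottom) in the 3 PM2.5 libraries (filled circles) and the 3 saline libraries (open squares), each panel on its own linear axis. Usf2 and Tmem100 overlap between groups while their antisense lncRNAs are listed at 0 in saline, and Cables1 and Stk35 are higher in PM2.5 lungs while their antisense lncRNAs are lower, without overlap.

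Members opposite genes that matter for lung and particle exposure were mostly too low to test. Of 39 lung epithelial genes, 15 had a total of 24 members, and 4 members were tested, none at an unadjusted p under 0.05. NONMMUT028644.2, tail to tail with Abca3, the lipid transporter of surfactant bodies, measured 1.49, 1.57 and 2.00 FPKM in PM2.5 lungs, against 1.90, 1.45 and 1.92 FPKM in saline lungs. NONMMUT120513.1 inside the alveolar type 2 phosphate transporter gene Slc34a2 was at 0.928 to 1.05 FPKM in PM2.5 lungs and 0.818 to 1.76 FPKM in saline lungs. NONMMUT057419.2 inside Sftpb, the gene of surfactant protein B, was at 0.323 to 0.610 FPKM in PM2.5 lungs and 0.513 to 0.671 FPKM in saline lungs, beneath a gene level of 1524 to 1900 FPKM. All 3 overlapped.

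Of 70 genes of endothelium, vessel and matrix, 33 had 58 members, of which 6 were tested and only the Bmpr2 member was at an unadjusted p under 0.05. NONMMUT132621.1, head to head with Loxl1, the gene of an elastin cross-linking enzyme, measured 0.395, 0.574 and 0.672 FPKM in PM2.5 lungs, against 0.916, 0.775 and 0.693 FPKM in saline lungs. Its groups did not overlap, and Loxl1 was at 11.0, 10.5 and 10.4 FPKM in PM2.5 lungs, against 20.6, 25.4 and 18.3 FPKM in saline lungs (log2 fold change of the gene -0.97, adjusted p = 0.101, limma). NONMMUT019484.2 inside Fgf10, a growth factor of lung branching, and NONMMUT005004.2 spanning Tcf21, a transcription factor of lung fibroblasts, overlapped between groups.

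Of 88 genes of immune, stress and xenobiotic response, 34 had 51 members and 5 were tested. NONMMUT152751.1 inside Jund, an AP-1 transcription factor gene, was lower at an unadjusted p under 0.05 (log2 fold change -1.13 ± 0.40, SE; adjusted p = 0.507, limma), and was named after its values were seen. It measured 0, 0.361 and 0.195 FPKM in PM2.5 lungs, against 1.06, 1.696 and 0.409 FPKM in saline lungs. The member passed the filter only through its saline values, so its p carries no weight of its own. Jund measured 3.25, 3.21 and 2.01 FPKM in PM2.5 lungs, against 14.7, 18.7 and 6.19 FPKM in saline lungs. The gene had a log2 fold change of -1.93 ± 0.41 (SE; adjusted p = 0.218, limma), and the member lies wholly inside it, so their levels are not separable by strand. The 2 members head to head with Nfkb2, the gene of the p100 and p52 subunits of NF-kB, have nearly the same span. NONMMUT034938.2 measured 1.81, 0.971 and 1.30 FPKM in PM2.5 lungs, against 1.48, 1.92 and 1.51 FPKM in saline lungs. NONMMUT034937.2 measured 0.953, 1.65 and 0.949 FPKM in PM2.5 lungs, against 1.25, 0.888 and 0.771 FPKM in saline lungs. Both overlapped, with Nfkb2 at 8.72 to 10.1 FPKM in PM2.5 lungs and 10.6 to 14.9 FPKM in saline lungs. Members opposite Ddit3, a transcription factor of endoplasmic reticulum stress, and Zfp36, which promotes decay of cytokine messengers, overlapped too.

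Of the 4965 overlapped genes, 4216 were tested and 2 passed, Cbl and Gm4617, against 14 of 14865 genes (0.0942%). Over all genes 0.074% passed as higher and 0.0202% as lower in PM2.5 lungs. Cbl, the gene of a ubiquitin ligase for receptor kinases, rose to 16.6, 16.6 and 17.9 FPKM in PM2.5 lungs, against 4.41, 4.66 and 3.76 FPKM in saline lungs (log2 fold change 1.88, adjusted p = 0.00876, limma). Its member NONMMUT068833.2 stayed at or below 0.0794 FPKM in all 6 libraries, beneath the level of 3 fragments on 1 kb. Gm4617, at 1.78 to 2.39 FPKM in PM2.5 lungs and 0.0343 to 0.0705 FPKM in saline lungs, had a member no higher than 0.176 FPKM. Gm4617 passed the filter only through its PM2.5 values, so its call carries no weight of its own. None of the 575 tested genes opposite a tested member passed, with 17 higher and 34 lower at an unadjusted p under 0.05, against 3.66% and 7.82% of all genes.

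Of 57 genes that degrade, sense or act with antisense RNA, 53 were tested and 0 passed in limma, with 5 higher and 4 lower at an unadjusted p under 0.05, against 3.66% and 7.82% of all genes, and a smallest adjusted p of 0.167. That smallest value was of Dnmt1, the maintenance DNA methyltransferase, at 8.71, 7.98 and 9.16 FPKM in PM2.5 lungs, against 6.01, 4.72 and 4.96 FPKM in saline lungs. Of 9 tested subunits of the RNA exosome with Exosc symbols, 4 had log2 fold changes below 0 and 5 above it, at 0.059 to 0.20. The exosome genes Dis3 and Dis3l, not in that count, were at -0.03 and -0.07. Exosc4 and Exosc5 were lower at an unadjusted p under 0.05, Exosc4 at 3.53 to 3.68 FPKM in PM2.5 lungs and 5.25 to 7.11 FPKM in saline lungs. Zfc3h1, which connects nuclear RNA to the exosome, lay higher, at 12.3 to 14.0 FPKM in PM2.5 lungs and 10.5 to 11.1 FPKM in saline lungs. Of the double-stranded RNA sensors, Ifih1 and Ddx58 overlapped between groups, and the editing enzyme gene Adarb1 was at 4.70, 6.87 and 8.74 FPKM in PM2.5 lungs, against 1.38, 2.05 and 2.97 FPKM in saline lungs (adjusted p = 0.209, limma). The median log2 fold change of the list was 0.10, beside -0.03 over all genes.

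2 members opposite cardiac myosin genes were named after their values were seen. NONMMUT143149.1, inside Myh7 and across the hairpin of Mir208b on the other strand, measured 0.687, 0.101 and 0.237 FPKM in PM2.5 lungs, against 0.364, 1.14 and 0.591 FPKM in saline lungs. NONMMUT020944.2, inside Myh6 and across the hairpin of Mir208a on the other strand, was too low to test, at 0.272, 0.0214 and 0 FPKM in PM2.5 lungs and 0.165, 0.305 and 0.214 FPKM in saline lungs. Both were highest in PM2.5 replicate 2 and saline replicate 3 of their groups, as were the summed cardiac markers.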

How the data were processed

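The authors deposited 1 value per transcript and library, taken here as FPKM (normalized to length and library size) from the sums and spacing of the values, since the file names no unit. Reads were handled with HISAT2 and bcl2fastq on build mm10, per the submitters' processing notes, without versions. Quantifier and annotation: not given in the sources used here. Depth was estimated from steps between low values and no counts were recovered. A value of 0 can be a failed estimate. Spans are those of the table, matched with GenomicRanges 1.54.1 and version 1.17.8 of data.table. Ensembl transcripts were summed per gene symbol, so fragments assigned to transcripts without position are left out. Transcripts, genes and pair ratios were compared with limma 3.58.1 in R 4.3.3 (mean trend, log2(FPKM + 0.5), mean FPKM no lower than 0.5, 2-sided, Benjamini-Hochberg over each whole table, threshold 0.05), after checks on simulated data. Promoters and microRNAs are from RefSeq (GRCm38.p6), matched by symbol. Named members are up to 12 per direction by lowest p among non-overlapping groups with at least 1 FPKM in a group, the 8 with the highest mean, up to 6 pairs per direction by lowest ratio p, and up to 4 per list of overlapped genes by highest mean. Members and lists were chosen with earlier results of these data known. Alternatives were other pseudocounts, filters and scalings, robust moderation, array weights, each library left out, the replicate number as a block, other overlap rules and another choice of the overlapped gene. Sums of overlapping members and the overlapped transcripts alone were added after seeing the data. Some members that the naming rule selects are not reported here.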

Additional observations from a re-analysis of the deposited data

How the results depend on the processing

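Results were recomputed under other settings, and causes of the shifts were not tested. No member passed in limma except 1 (Usf2) with a pseudocount of 1 and with no filter, and 0 to 2 with a library left out. The 2, opposite Agbl5 and Gabpb1, passed without saline replicate 3. That library held 2.87 and 2.43 FPKM while the other saline libraries listed 0. Without it both passed the filter through PM2.5 values alone, so these calls carry no weight. The 1 pair that passed became 0 with the replicate block, a pseudocount of 1, the filter at 2 FPKM, or an overlap of at least 50% of the member, 5 with no filter, and 0 to 3 with a library left out (0 without PM2.5 replicate 2, saline replicate 2 or saline replicate 4). With the replicate number as a block, the Usf2 pair had an adjusted p of 0.284 and members under an unadjusted p of 0.05 numbered 36 lower and 6 higher. Same-numbered libraries correlated with r of 0.00 to 0.01 in their deviations from the group means. With 3 libraries per group this cannot show whether the numbers pair the samples, and the labels do not say.

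The median log2 fold change of tested members, -0.08, was -0.025 with no filter, 0.0054 with the filter at 2 FPKM (103 members), and -0.12 to -0.06 with a library left out. That of head-to-head members, -0.23, was -0.16 and -0.31 with pseudocounts of 1 and 0.1, -0.036 with no filter, -0.13 with the filter at 2 FPKM, -0.17 after quantile normalization, and -0.28 to -0.18 with a library left out. The median log2 ratio of member to gene, -2.26, was -1.93 and -2.68 with those pseudocounts, -3.28 with no filter, -1.36 with the filter at 2 FPKM, -2.19 with an overlap of at least 50%, -2.45 with no Ensembl span on the same strand within 5000 bases, -1.78 with overlapped transcripts only, and -2.33 to -2.22 with a library left out. Members at an unadjusted p under 0.05 were 324 lower and 87 higher of 8357 with no filter, and 8 and 2 of 103 with the filter at 2 FPKM. Shares over all transcripts were not counted for these settings, the replicate block or a library left out. Counts of members under them therefore cannot be set against a background.

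The log2 fold changes of 11 named members and 1 pair turned sign. With a library left out the ranges were -0.15 to 0.017 for NONMMUT028644.2, -0.17 to 0.11 for NONMMUT005004.2, -0.0053 to 0.32 for NONMMUT034937.2, -0.012 to 0.081 for NONMMUT068929.2, -0.060 to 0.30 for NONMMUT104095.1, -0.084 to 1.96 for NONMMUT069082.2, -0.24 to 0.043 for NONMMUT060449.2 and -0.25 to 0.14 for NONMMUT120513.1. Summed with overlapping members, NONMMUT034938.2 was at 0.026, NONMMUT153092.1 at 0.096 and NONMMUT104431.1 at -0.036. The Scarb2 pair was at -0.61 with overlapped transcripts only.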
